A study of Homo sapiens with 4 samples.

Results

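The region around BCAN and NES on the long arm of chromosome 1 was described in SMC1 ChIA-PET data from Kelly, an established human neuroblastoma cell line. It covers 156450000 to 156740000 of chromosome 1 in hg19, and every anchor pair with an anchor midpoint inside it was a member. These were 2563 of the 720049 pairs listed in the study's tables, resting on 39 of 39507 anchors. The region was chosen by the PET count of its strongest pair, which was known from both groups. The strength of that pair is therefore given as a description, with no test.

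In ChIA-PET, chromatin is pulled down with an antibody, here against SMC1 of the cohesin ring, and nearby DNA ends are ligated. Each sequenced junction is a paired-end tag (PET) that names a pair of contacting places. An anchor is a stretch of the genome in which such ends pile up, and the PETs of an anchor pair count how often its ends were joined. Both groups were a Kelly derivative resistant to the ALK inhibitor TAE684, kept in 1 µM of it, infected for 24 h and then selected with puromycin for 48 h. The shBORIS group received a hairpin construct against BORIS and the shLUC group the control construct, with 2 libraries each. The labels number the libraries but do not say whether the numbers mark separate hairpins or cultures. The authors deposited 1 table per group that pools its libraries. No value below therefore has a replicate error, and a test here sets one pool against the other, which is not a test of the conditions. The level of BORIS was not analysed here, and a single cell line stands for the disease.

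BCAN encodes brevican, a proteoglycan of the brain's extracellular matrix. NES encodes nestin, an intermediate filament protein known as a marker of neural stem and progenitor cells, and CRABP2 encodes a protein that binds retinoic acid inside the cell. Cohesin extrudes loops of chromatin and is often halted at sites bound by CTCF. CTCFL, the gene of BORIS, is a paralog of the CTCF gene with similar zinc fingers. In the gene order of GRCh38.p14 the genes before BCAN are MEF2D, IQGAP3, TTC24, NAXE, GPATCH4 and HAPLN2, which encodes a link protein that holds proteoglycans such as brevican to hyaluronan. CRABP2, ISG20L2, METTL25B, MRPL24, HDGF and PRCC follow NES. Only BCAN (156611740 to 156629324) and NES (156638556 to 156647189) had hg19 positions here, so anchors were placed against these genes alone. BCAN is read toward higher coordinates and NES toward lower ones, so that the 3′ ends of the genes face each other.

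Numbered from the lower to the higher coordinate, 16 of the 39 anchors lay before BCAN, 3 overlapped it, 1 lay between the genes, 3 overlapped NES and 16 lay beyond NES. The strongest pair joined anchor 19, at 156626084 to 156631646, with anchor 23, at 156646472 to 156648875. Anchor 19 covered the last 3.24 kb of BCAN and 2.32 kb past its end. Anchor 23 covered the first 0.718 kb of NES and 1.69 kb before its start. The start of BCAN lay in anchor 17, at 156611319 to 156612745. The bases before the RefSeq starts of both genes are shown because anchors 17 and 23 cover the starts that define them. They come from RefSeq on GRCh38.p14, whose starts can differ from the hg19 ones used for the anchors, and run 5′ to 3′ on the gene's strand with GC boxes (GGGCGG, either strand) in capitals.
BCAN, chr1:156641867-156642116, plus strand: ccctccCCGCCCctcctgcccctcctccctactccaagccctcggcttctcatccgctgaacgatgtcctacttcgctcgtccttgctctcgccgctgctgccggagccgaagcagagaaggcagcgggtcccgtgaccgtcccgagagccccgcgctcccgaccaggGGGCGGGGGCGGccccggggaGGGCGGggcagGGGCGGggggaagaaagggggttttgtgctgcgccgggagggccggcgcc
NES, chr1:156677408-156677657, minus strand: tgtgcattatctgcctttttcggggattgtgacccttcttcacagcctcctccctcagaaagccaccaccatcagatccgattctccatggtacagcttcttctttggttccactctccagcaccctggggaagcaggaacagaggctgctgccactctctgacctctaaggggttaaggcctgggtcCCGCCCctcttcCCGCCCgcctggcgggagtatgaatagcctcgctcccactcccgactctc

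The BCAN stretch held 5 GC boxes, the motif of SP-family factors, and the NES stretch 2. Of 35116 promoters in the table, 42.6% held at least 1 in the same 250 bases. The short motif CCCTC occurred 6 times before BCAN and 2 times before NES, counting both strands, and 66.6% of promoters held it. Neither stretch held the longer CTCF consensus core, found in 0.427% of promoters, nor the E-box CACGTG, found in 6.34%. These are matches of letters in 1 window per gene, and they say nothing of binding. The sequence of the anchors themselves was not used here, since no hg19 genome was at hand.

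The BCAN to NES pair had 51 PETs in shLUC and 46 in shBORIS. Its anchor midpoints were 18.8 kb apart. Pairs spanning 15.05 to 23.51 kb had a median of 1 PET, and 99% of those listed had at most 11 in shLUC and 12 in shBORIS. Among the 3159 such pairs of shLUC and the 3700 of shBORIS it ranked 1 in each table. Over all intrachromosomal pairs it ranked 5 of 86872 in shLUC and 15 of 92885 in shBORIS. The average over all 10482 possible anchor pairs of like span was 0.573 PETs in shLUC and 0.716 in shBORIS.

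**Figure D1:**
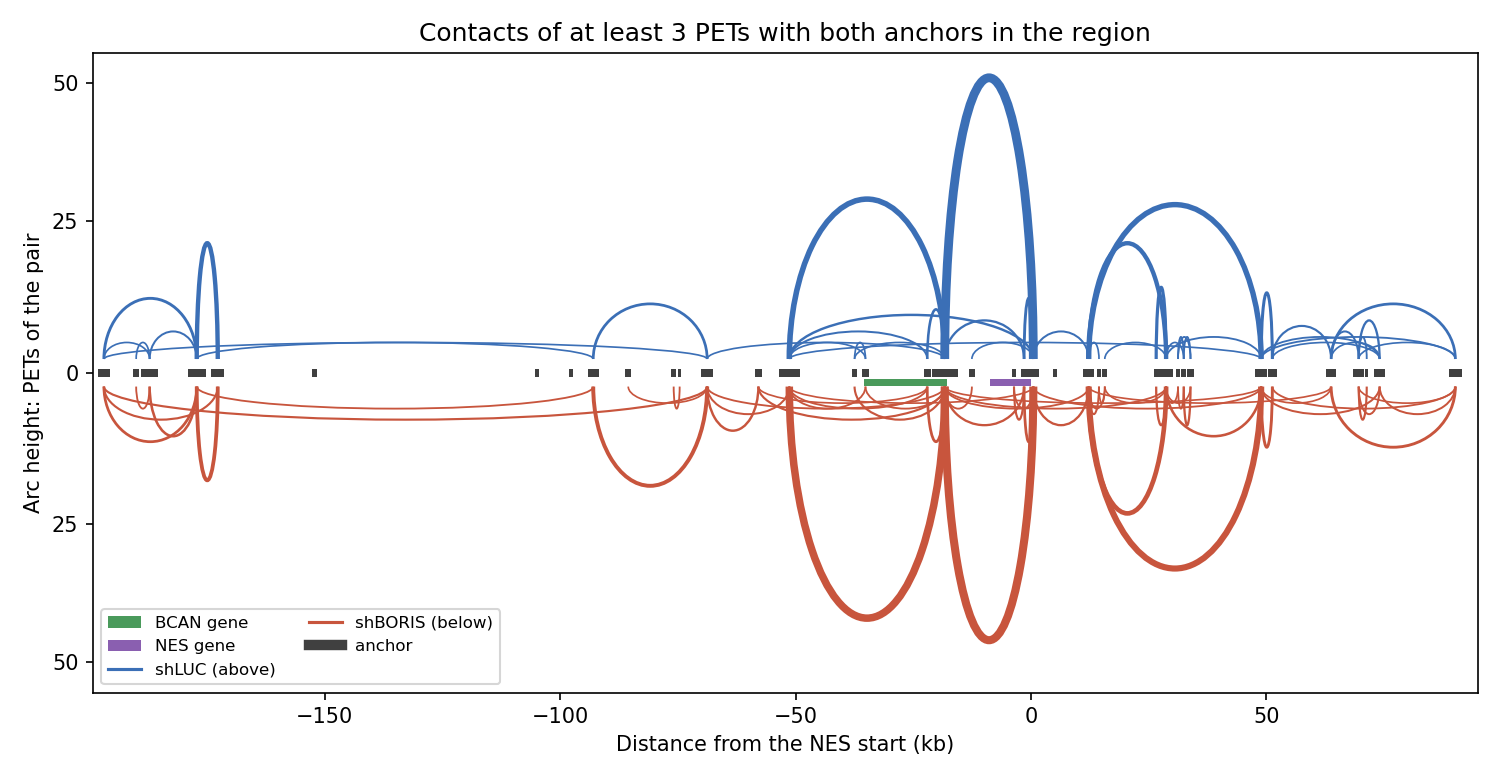
Pairs of at least 3 PETs with both anchors in the region, drawn as arcs over the distance from the NES start in kb, shLUC above and shBORIS below, with arc height and line width giving the PETs. The tallest arc, from the end of BCAN to the start of NES, reaches 51 PETs in shLUC and 46 in shBORIS.

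Ratios of shBORIS over shLUC are scaled by the intrachromosomal total of each table, 146140 PETs in shLUC and 163041 in shBORIS, and carry exact 95% intervals for counting error only. The scaled ratio of the pair was 0.808 (0.531 to 1.23), given as a description since its counts chose the region. The interval includes 1 and leaves room for a lower as well as a higher count in shBORIS. Interchromosomal PETs served as a gauge of how often an anchor was captured. At the NES anchor they numbered 83 in shLUC and 57 in shBORIS, a ratio of 0.691 (0.485 to 0.980) scaled to interchromosomal totals. At the BCAN anchor they numbered 127 and 145, a ratio of 1.15 (0.899 to 1.47), so that the intervals of the ends overlapped, and the ends were not tested against each other. None of the region's 35 tested anchors passed Fisher's exact test on interchromosomal PETs (lowest adjusted p = 0.687). Before adjustment 4 of them were under 0.05. The share under 0.05 among all 35637 tested anchors was not taken, so the count of 4 has no background here. The part of capture in the pair's ratio was not tested.

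Anchor 19, at the end of BCAN, had contacts on both sides. It carried 142 intrachromosomal PETs in shLUC and 170 in shBORIS, against a median of 5 over all anchors in each table, and only 5 and 6 other anchors of the genome had as many or more. Anchor 19 was also the widest of the region, with 5563 bases against a median of 1172 over all anchors. Its total includes the pair that chose the region, and no adjustment for width was made. The pair with the NES start held 35.9% of the anchor's intrachromosomal PETs in shLUC (28.0 to 44.4) and 27.1% in shBORIS (20.5 to 34.4). Its next partner was anchor 15, at 156593600 to 156598117 and 33.0 kb toward lower coordinates, with 29 PETs in shLUC and 42 in shBORIS. The ratio of that pair was 1.30 (0.790 to 2.16; adjusted p = 0.985 by Fisher's exact test over 3951 pairs with at least 10 PETs summed), so the 2 strongest contacts of the BCAN end had intervals that overlapped and included 1. Anchor 15 lies before BCAN, on the side of HAPLN2 in gene order. Weaker partners of the BCAN end on that side were anchor 13 with 3 and 4 PETs, anchor 14 with 1 and 6 and anchor 16 with 3 and 6. Toward higher coordinates they were anchor 20 between the genes with 0 and 4, anchor 29 with 1 and 4 and anchor 33 with 2 and 3. Of PETs spanning under 500 kb, anchor 19 sent 39.5% toward lower coordinates in shLUC (30.7 to 48.9) and 49.7% in shBORIS (41.4 to 57.9). The rest, toward higher coordinates, includes the pair that chose the region.

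Anchor 23, at the start of NES, pointed mainly back across its own gene through the pair that chose the region. It had 90 intrachromosomal PETs in shLUC and 99 in shBORIS. The pair with the BCAN end held 56.7% of them in shLUC (45.8 to 67.1) and 46.5% in shBORIS (36.4 to 56.8). Its second partner was anchor 22 inside NES, the abutting anchor, with 11 PETs in shLUC and 10 in shBORIS. Anchor 20, between the genes, gave 3 and 1. Anchor 15, across the whole of BCAN, gave 8 and 3 PETs over 51.8 kb, a ratio of 0.336 (0.0574 to 1.4; adjusted p = 0.912 by Fisher's exact test). Thus anchors 15, 19 and 23 were joined in all 3 combinations in each table, with the direct contact of the outer anchors the weakest.

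Of the NES anchor's PETs spanning under 500 kb, 77 of 84 in shLUC ran toward BCAN, or 91.7% (83.6 to 96.6). In shBORIS 69 of 89 did so, or 77.5% (67.4 to 85.7). The pair that chose the region gave 51 of the 77 in shLUC and 46 of the 69 in shBORIS. The shares toward BCAN therefore rest largely on the counts that chose the region. Away from BCAN the anchor had 7 PETs in shLUC and 20 in shBORIS. Its strongest partner on that side was anchor 25, at 156658267 to 156660604, with 5 and 7 PETs. Anchor 33, at 156694739 to 156697376, had 0 and 4. These shares were picked out after their values were seen and were not tested on their own.

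**Figure D2:**
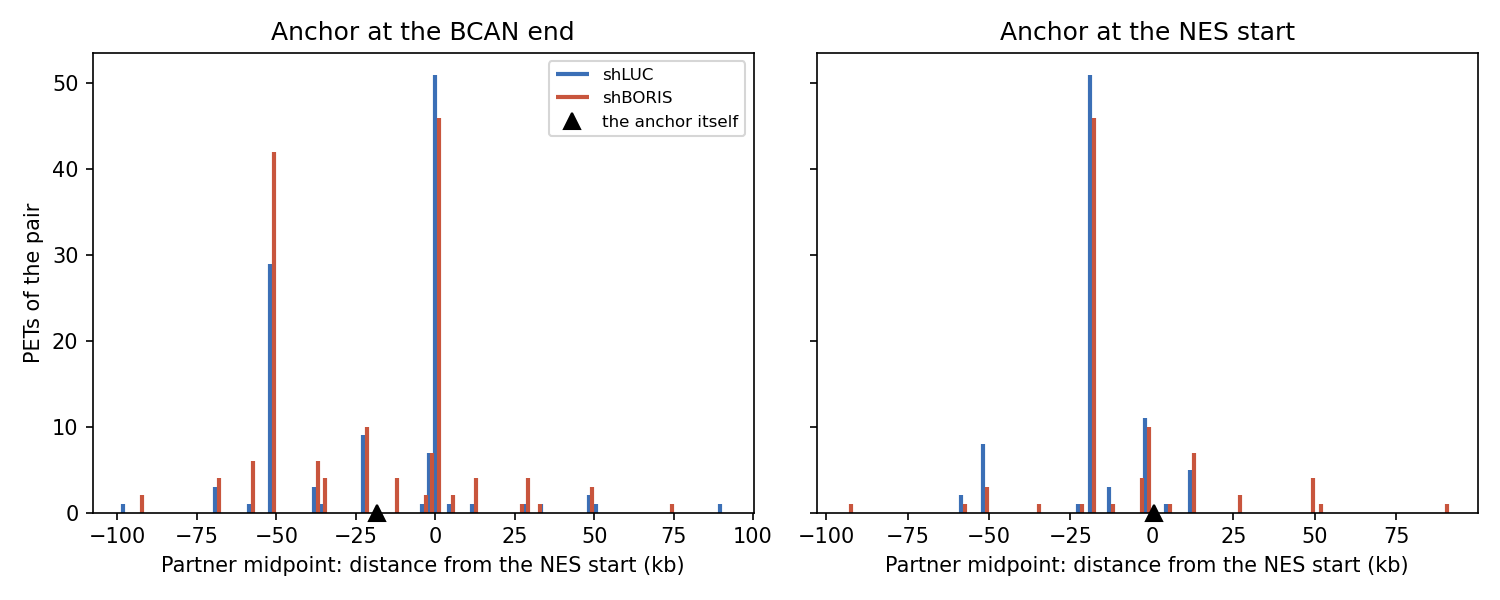
PETs of every pair that joins the anchor at the BCAN end (left) or at the NES start (right) to another anchor of the region, over the partner's distance from the NES start in kb, with shLUC and shBORIS side by side. The BCAN end has 1 tall partner on each side, with 29 and 42 PETs at anchor 15 and 51 and 46 at the NES start, while the NES start has its tall partner on the BCAN side alone.

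The start of BCAN was a weak anchor beside the end of the gene. Anchor 17 had 7 intrachromosomal PETs in shLUC and 14 in shBORIS, above the median of 5 over all anchors in each table. Its contact with the BCAN end, across the gene body, had 1 and 4. With anchor 15 it had 3 and 4 PETs, and with the neighbouring anchor 16 it had 3 and 1. Anchor 18, at 156624456 to 156625843 inside BCAN, had 19 and 20 PETs, of which 9 and 10 joined it to anchor 19. It also joined anchor 15 with 5 and 4 PETs and anchor 14 with 0 and 3. Inside NES, anchor 22 at 156644973 to 156646450 had 25 and 32, with 7 in each table on its contact with the BCAN end. Anchor 21, at 156643048 to 156644100, had 7 and 18, of which 1 and 6 joined it to anchor 22 and 0 and 4 to anchor 23. Among the anchors overlapping either gene, those at the end of BCAN and the start of NES had the most PETs. Both totals include the pair that chose the region, with 51 PETs in shLUC and 46 in shBORIS. The anchor that covers the start of BCAN had far fewer, with 7 and 14 PETs against 142 and 170 at the end of the gene. It is also narrower, with 1427 bases against 5563.

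A separate group of contacts lay beyond NES, on the side of CRABP2 in gene order. No anchor was assigned to CRABP2 itself, because its hg19 position was not used here. Anchor 25 joined anchor 33 over 36.6 kb with 28 PETs in shLUC and 33 in shBORIS, a ratio of 1.06 (0.619 to 1.81; adjusted p = 1 by Fisher's exact test). It joined anchor 29, at 156674403 to 156677347, with 21 and 23 PETs, a ratio of 0.982 (0.519 to 1.87; adjusted p = 1 by Fisher's exact test). The third side, from anchor 29 to anchor 33, had 4 and 9 PETs. Anchor 19 at the BCAN end and anchor 25, which lie on opposite sides of NES, were joined by 1 PET in shLUC and 4 in shBORIS.

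Counted by side, contacts seldom passed over the whole BCAN to NES interval, from the midpoint of anchor 19 to that of anchor 23. Of PETs with both ends in the region and a span under 500 kb, 106 in shLUC and 143 in shBORIS stayed below the interval. Above it, on the CRABP2 side, 174 and 206 stayed. Across the interval, 8 PETs in shLUC and 15 in shBORIS joined one side to the other. These must span more than 18.8 kb, while PETs within a side include shorter ones. No expectation by span was set, so the counts are not compared on equal terms. From the lower side to the interval there were 59 and 84, and within the interval 76 and 81. The counts within the interval include the pair that chose the region, with 51 PETs in shLUC and 46 in shBORIS. From the interval to the higher side there were 18 in shLUC and 38 in shBORIS, a scaled ratio of 1.89 (1.05 to 3.52). This interval alone of the 6 left out 1, it was not corrected for the 6, and the one across both sides was 1.68 (0.669 to 4.58).

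The PETs that crossed each space between neighbouring anchors, counted for spans under 200 kb, showed where contacts thinned out. The 38 spaces of the region had a median of 62 crossing PETs in shLUC and 82.5 in shBORIS, against 12 and 14 over 16072 tested spaces of the genome. Just before the NES start anchor, between anchors 22 and 23, 100 PETs crossed in shLUC and 107 in shBORIS. Just beyond it, between anchors 23 and 24, the number was 30 and 58, and after anchor 25 it was back at 85 and 127. A second thin stretch lay before anchor 15, with 16 to 18 crossing PETs in shLUC and 33 to 35 in shBORIS, rising to 61 and 85 after that anchor. In both tables anchors 15 to 23, with BCAN and NES between them, had spaces on each side that fewer PETs crossed. The pair that chose the region crosses the space before anchor 23 with 51 PETs in shLUC and 46 in shBORIS and ends there. The step at anchor 23 therefore holds the counts that chose the region. In shBORIS those 46 PETs make up nearly all of the fall from 107 to 58. In shLUC the 51 make up the larger part of the fall from 100 to 30. The step was not tested without them. The flanks of anchors 15 to 23 were not the only thin places. The 4 spaces between anchors 5 and 9 were crossed by 31 to 33 PETs in shLUC and 39 to 45 in shBORIS.

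**Figure D3:**
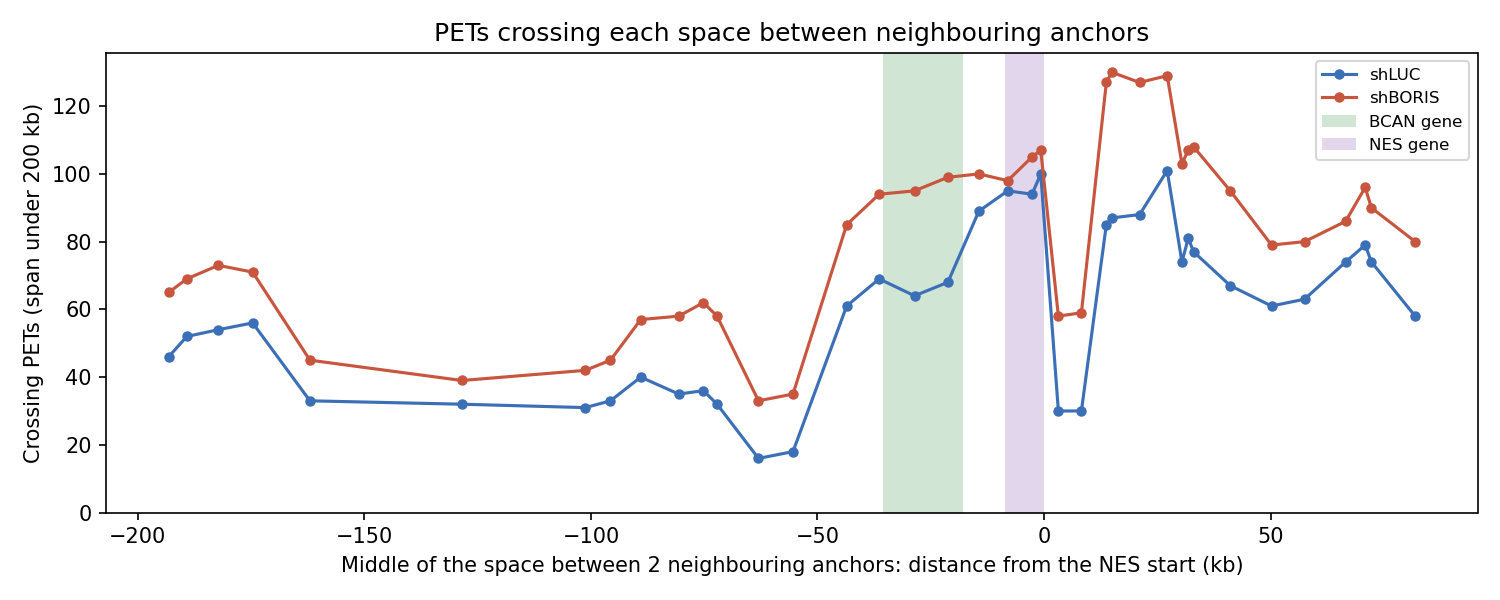
PETs spanning under 200 kb that cross each space between 2 neighbouring anchors of the region, at the middle of the space in kb from the NES start, for shLUC and shBORIS, with the BCAN and NES genes shaded. Both lines dip on either side of the genes, to 16 and 33 before anchor 15 and to 30 and 58 beyond the NES start, and they are also low between anchors 5 and 9. The spaces from the BCAN end to the NES start include the PETs of the pair that chose the region. In shBORIS these make up nearly all of the fall at the NES start.

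At the space beyond the NES start the scaled ratio was 1.73 (1.10 to 2.79; adjusted p = 0.544 by Fisher's exact test over the 16072 spaces), so the excess in shBORIS did not pass. This count was chosen after seeing the data. Without the PETs of anchor 23 itself the ratio was 1.46 (0.854 to 2.53; adjusted p = 0.854 by Fisher's exact test). None of the 38 spaces passed Fisher's exact test after adjustment, where 0.0311% of all tested spaces did. At an unadjusted p under 0.05 there were 7 of 38, against 6.93% of all. Neighbouring spaces share most of their PETs, so these 7 are not separate observations.

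Over the whole region, PETs with both ends inside numbered 441 in shLUC and 567 in shBORIS, a scaled ratio of 1.15 (1.02 to 1.31). The BCAN to NES pair held 11.6% of them in shLUC (8.73 to 14.9) and 8.11% in shBORIS (6.0 to 10.7). The 5 strongest pairs of each table together held 34.0% and 28.6%. PETs from the region to anchors under 500 kb away numbered 84 and 121, a ratio of 1.29 (0.969 to 1.73). Those to anchors 500 kb to 2 Mb away numbered 6 and 7, and those beyond 2 Mb 124 and 158, a ratio of 1.14 (0.897 to 1.46). Interchromosomal PETs numbered 950 and 1037, with a ratio of 1.10 (1.005 to 1.201), above 1 like that of the local contacts. Scaled to all PETs it was 1.06 (0.965 to 1.15), an interval that includes 1. With that scaling PETs with both ends inside had a ratio of 1.24 (1.10 to 1.41). The part of capture in the ratio of local contacts was not tested. No interchromosomal pair of the region had more than 2 PETs in either table.

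Intrachromosomal PETs made up 40.8% of the region's PETs in shLUC (38.4 to 43.3) and 45.1% in shBORIS (42.9 to 47.4). Over all chromosomes the shares were 33.6% and 36.2%. Most of the region's intrachromosomal pairs had a single PET, 225 of 303 in shLUC and 288 of 396 in shBORIS.

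Of the 586 intrachromosomal pairs of the region, 20 reached 10 PETs summed over the tables and were tested, among them the BCAN to NES pair that chose the region. None passed Fisher's exact test after adjustment (smallest adjusted p = 0.912), where 0.0506% of all tested pairs did. None had an unadjusted p under 0.05 either, against 5.69% of all tested pairs. Their ratios ran from 0.336 to 2.02 with a median of 0.984, beside a median of 1.02 over all tested pairs. Above 1 were 8, or 40%, and 12 were below, where 51.2% of all tested pairs were above 1. The largest ratio was that of anchors 29 and 33, and the smallest that of anchors 15 and 23. All 20 were called interactions in both tables, where a call takes at least 3 PETs and a test takes 10 summed. The share of all 3951 tested pairs called in both was not taken, so this is no trait of the region. Of the 20, those not yet described lay before BCAN or beyond NES. Before BCAN, anchors 4 and 5 were joined by 21 PETs in shLUC and 17 in shBORIS, and anchors 9 and 13 by 10 and 18. Anchor 4 also met anchor 1 with 11 and 10 PETs and anchor 3 with 5 and 9. Beyond NES, anchors 33 and 34 were joined by 12 and 11 PETs and anchors 35 and 39 by 10 and 11. The neighbours 28 and 29 had 13 and 7, the next to lowest ratio of the 20 at 0.483 (0.163 to 1.30). With 10 to 97 PETs per pair the intervals were wide, so that moderate differences were not detectable at this depth.

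**Figure D4:**
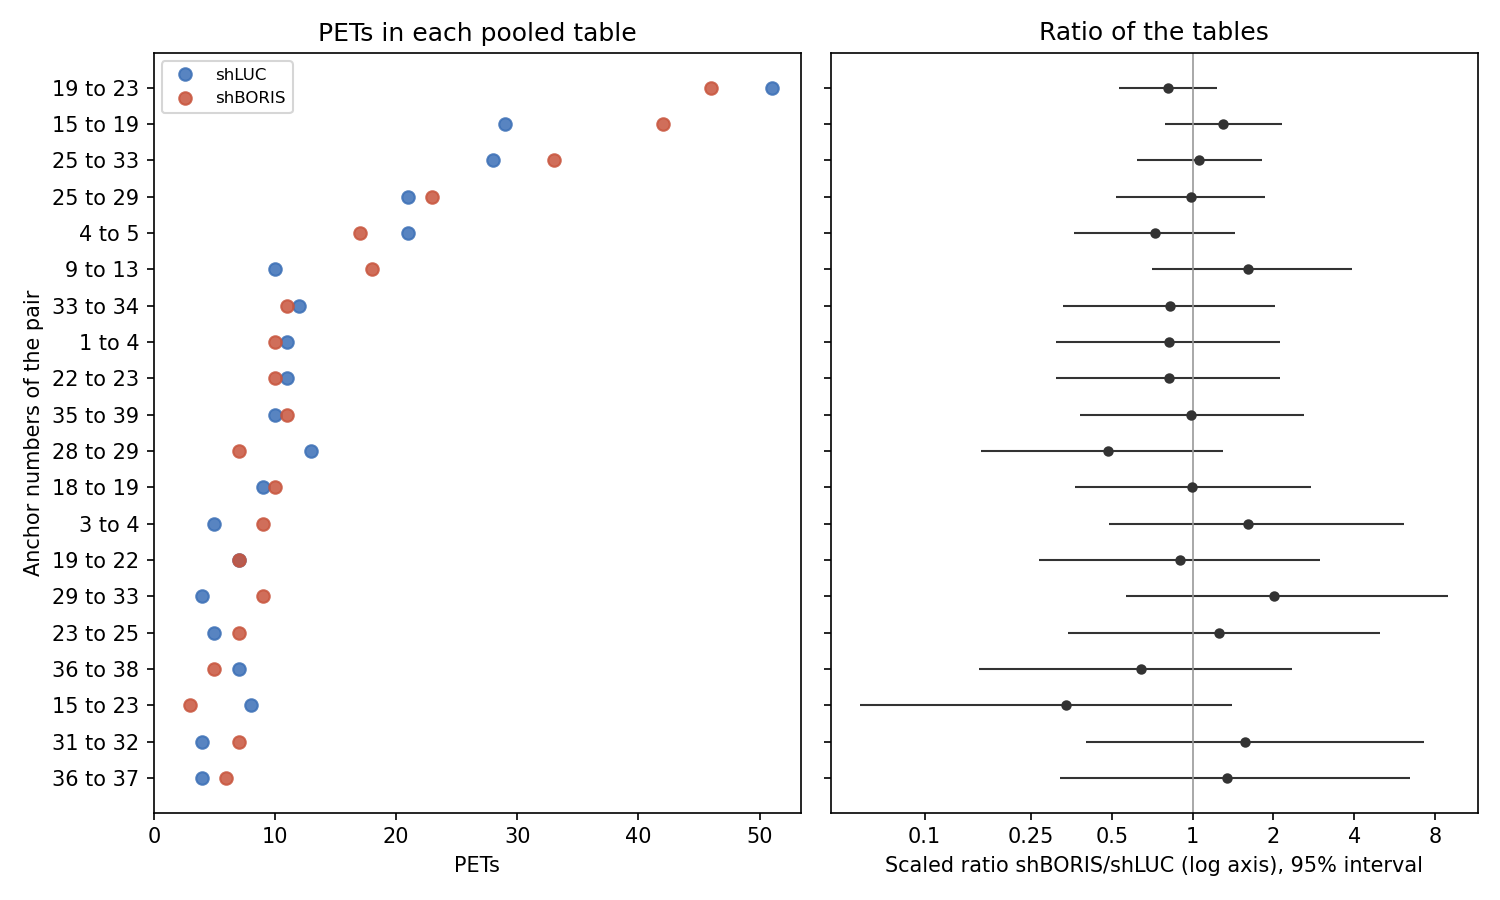
The 20 pairs with at least 10 PETs summed, by anchor number, with their PETs in shLUC and shBORIS (left) and the scaled ratio with its exact 95% interval on a log axis (right). The intervals of all 20 pairs include 1, and the ratios run from 0.336 to 2.02.

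A pair counted as a called interaction from 3 PETs upward, if its Bayes probability was also 0.9 or more. In the region 50 were called in shLUC and 66 in shBORIS. Of the 79 called in either, 37 were shared, or 46.8%, where 34.8% of all calls were shared. A further 13, or 16.5%, were lost in shBORIS, where 27.4% of all calls were, and 29, or 36.7%, were gained, where 37.8% were. Set against each table's own calls, the shared ones came to 74.0% in shLUC (59.7 to 85.4) and 56.1% in shBORIS (43.3 to 68.3). The region was selected on a pair called in both tables, and these shares are a description with no test. The lost calls had a median of 3 PETs in shLUC and at most 6, and 11 of the 13 still had a PET in shBORIS. The gained calls had a median of 4 in shBORIS and at most 8, and 19 of the 29 had a PET in shLUC. The pairs of the BCAN end anchor called in shBORIS numbered 12, against 6 in shLUC, and those of the NES start anchor 6 and 5. The 6 further calls of the BCAN end had 3 to 6 PETs in shBORIS, while the anchor's total had a ratio of 1.07. Over all chromosomes 11236 interactions were called in shLUC and 13111 in shBORIS.

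Summed over all their intrachromosomal contacts, 36 of the 39 anchors reached 10 PETs and were tested. None passed Fisher's exact test after adjustment (smallest adjusted p = 0.305), where 0.0204% of all 19623 tested anchors did. At an unadjusted p under 0.05 there were 3 of 36, against 6.43% of all. These were anchors 3, 13 and 14, named here after their values were seen, all before BCAN and all higher in shBORIS, with 14, 37 and 10 PETs in shLUC and 30, 81 and 26 in shBORIS. Their interchromosomal PETs numbered 19, 59 and 11 in shLUC and 40, 55 and 18 in shBORIS, with ratios of 2.12 (1.199 to 3.87), 0.938 (0.638 to 1.38) and 1.65 (0.737 to 3.86). Their part in these 3 differences was not tested. The ratio was 1.07 (0.854 to 1.35) at the BCAN end anchor and 0.986 (0.734 to 1.33) at the NES start anchor. Over the 36 anchors it ran from 0.797 to 2.33 with a median of 1.22, beside 1.01 over all tested anchors. It was above 1 at 26 of them, or 72.2%, and below at 10, where 50.2% of all tested anchors were above 1. Anchors of the region share pairs, so these counts are not independent. The nearest anchors outside the region, 14.3 kb below and 3.12 kb above its limits, had 10 and 6 intrachromosomal PETs in shLUC and 4 each in shBORIS. Anchors 1 and 39, just inside, had 28 and 30 in shLUC and 37 and 42 in shBORIS.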

How the data were processed

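SMC1 ChIA-PET libraries were made by ligation of immunoprecipitated fragments, tagmentation and PCR, per the labels' protocols. The submitters' processing notes name cutadapt 1.8, Bowtie and hg19. Which program set anchors and scored pairs is not given in the sources used here. Each group has 1 table, deposited by the authors as the pool of its 2 libraries. PET counts are whole, unnormalized counts per anchor pair, per the file headers. The deposited hypergeometric p-value was not used. The deposited Bayes probability is a fraction from 0 to 1 and entered the calls. The shBORIS table lacks column names, so those of shLUC were applied by position. Depth was 434975 PETs in shLUC and 449979 in shBORIS. A pair absent from a table was given 0 PETs. Spans run between anchor midpoints, and coordinates count from 1.

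Pairs, anchors and spaces between anchors with at least 10 PETs summed were tested genome-wide with Fisher's exact test, two-sided, against the rest of each table's intrachromosomal PETs. P-values were adjusted by Benjamini-Hochberg, with 0.05 as the threshold. Intervals are exact 95% Clopper-Pearson intervals. They hold counting error alone, and PCR copies were not marked by molecular identifiers, so PETs need not be independent. The pair test was checked on simulated counts. The region, its gene names and the rule for naming pairs were chosen with earlier results of these data known. Named in full were the pair of the rule, the 15 pairs with the most PETs summed, from 10 upward, and the anchors on BCAN and NES with their partners of at least 3 PETs, others by counts and ranges. What was named beyond it is marked as chosen after its values were seen. Alternatives varied the scaling, the filters, the call rule, the region's edges, the span classes and the dispersion. Python 3.11.15 with SciPy 1.17.1 was used.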

Additional observations from a re-analysis of the deposited data

How the results depend on the processing

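In all 22 results were recomputed under 66 alternatives. For 55 of these the count was at most 1.5 times higher or lower, the ratio was inside the first interval, or it lay on the same side of 1 and of the threshold. The other 11 moved further and none reversed. The BCAN to NES ratio ran from 0.747, scaled to PETs spanning 10 to 50 kb, to 0.872, scaled to all PETs. No pair or anchor of the region passed under the alternatives run for them. With at least 5 PETs for a call, 20 were called in shLUC and 31 in shBORIS, with 16 shared, 4 lost and 15 gained, which follows from the higher minimum. The pair ranked 3 in shLUC and 7 in shBORIS among pairs spanning 0.5 to 2 times as far, and 5 and 15 among all, since more pairs enter. With pairs of at least 2 PETs, 5 PETs in shLUC and 4 in shBORIS crossed the whole interval, so the higher count of shBORIS there rests on single PETs. Beyond NES the ratio ran from 1.46 to 2.09, and the alternatives for it were chosen after seeing the data. No paired analysis was possible because libraries were deposited only as a pool per group, which also gave no replicate to leave out. Depth limits the pair test to large differences.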

Other observations

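Of the 79 interactions called in either table, 14 had their second anchor outside the region, and their spans reached 223 kb. By the sum of both tables the strongest joined anchor 25 beyond NES to 156827942-156831334 over 170 kb, with 4 PETs in shLUC and 5 in shBORIS. Anchor 33 reached the same distant anchor with 4 PETs in each table, and anchor 34 with 2 and 3. On the other side, 156413645-156416523 and anchor 13 were joined by 0 PETs in shLUC and 6 in shBORIS, and 156425622-156428043 and anchor 10 by 4 and 0. The pairs to outside anchors named here were chosen after their values were seen and were not tested. The anchors on BCAN and NES had no called contact outside the region.

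Anchor 13, at 156577122 to 156579704 before BCAN, was chosen after its values were seen. It had 37 intrachromosomal PETs in shLUC and 81 in shBORIS, a ratio of 1.96 (1.31 to 2.98; adjusted p = 0.305 by Fisher's exact test). Its interchromosomal PETs numbered 59 and 55. Its contact with the neighbouring anchor 14 had 0 and 8 PETs and that with anchor 9 had 10 and 18. Called interactions of anchor 13, which rest on the same PETs as its total, numbered 4 in shLUC and 8 in shBORIS. Those of all chromosomes numbered 11236 and 13111.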
